A study of Mus musculus with 20 samples.

Results

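Sulfite oxidase (*Suox*) and 9 other genes of sulfur amino acid metabolism were described in the hippocampus and neocortex of WT and miR-324-null mice. The set was a fixed list of 10 of the 35580 genes in the data, and the estimates of their 71 annotated transcripts were summed per gene. *Suox* came to notice through its higher level in miR-324-null samples and its predicted site for miR-324-5p, so its genotype difference is given as a description with no test. The 9 other genes were listed for their place in the same pathway.

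RNA-seq was performed on tissue from male C57BL/6J mice aged 13.5 months, with 5 samples in each of 4 groups. The groups were WT hippocampus, miR-324-null hippocampus, WT neocortex and miR-324-null neocortex, the last pair being labelled cerebral cortex. The null mice carry a CRISPR/Cas9 deletion of *Mir324* in every cell, made in founders of mixed background and then backcrossed onto C57BL/6J. The labels do not tie samples to separate mice, so p-values measure the spread between these samples. Levels are given as CPM, the estimated count of a gene scaled to the size of its sample by TMM, and genes are compared with each other in TPM, which also corrects for transcript length.

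Sulfur from methionine reaches cysteine by transsulfuration, in which cystathionine β-synthase (*Cbs*) and cystathionine γ-lyase (*Cth*) act in turn. Cysteine dioxygenase (*Cdo1*) opens the oxidative branch that leads through cysteine sulfinate decarboxylase (*Csad*) to taurine, an abundant amino sulfonic acid of the brain, while the sulfurtransferases *Mpst* and *Tst* and the persulfide dioxygenase *Ethe1* handle sulfane sulfur and hydrogen sulfide. Both branches can yield sulfite, a toxic ion that the mitochondrial enzyme sulfite oxidase turns into sulfate. Sulfite oxidase works only with the molybdenum cofactor, whose first steps of synthesis need *Mocs1* and *Mocs2*, and loss of either the enzyme or the cofactor causes severe brain damage in infancy.

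A microRNA represses mRNAs whose 3′UTR pairs with its seed, bases 2 to 8. The mature miR-324-5p, from RefSeq on GRCm38.p6, lies at chr11:70012060-70012082 on the plus strand and is shown with its seed in capitals.

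miR-324-5p: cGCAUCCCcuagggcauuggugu

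The letters complementary to this seed, GGGATGC, were searched on the transcribed strand of annotated 3′UTRs of protein-coding transcripts. Of 14290 tested genes with such a 3′UTR, 1360 (9.52%) held the match, and among the 10 genes it was found in *Suox* and *Mocs1*. Both stretches of 30 bases are shown because they let the pair be compared, with the match and the A that follows it in capitals.

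*Suox*: ttttcaattgcctctGGGATGCAaggggat

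*Mocs1*: gtcatgtctcccaagGGGATGCAattcagg

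The *Suox* stretch lies in GRCm38 at chr10:128669951-128669980 on the minus strand, in exon 4 of 4 of Suox-201, and its match begins at base 552 of a 3′UTR of 623 bases. The *Mocs1* stretch lies at chr17:49454807-49454836 on the plus strand, in exon 11 of 11 of both Mocs1-201 and Mocs1-203. The letters for the other arm, miR-324-3p (GGCAGTG), were found in 17.1% of the 14290 genes and in none of the 10. These shares are not adjusted for 3′UTR length. The longest 3′UTR per gene had a median of 1241 bases over the 14290 genes. Among the 10 it ran from 150 bases (*Ethe1*) to 739 bases (*Cdo1*), apart from *Mocs1* (1410 bases) and *Mocs2* (4257 bases).

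The libraries held between 12752439 and 19617765 estimated counts. Hippocampal principal neuron markers (6 genes, among them *Prox1*) summed to 418 to 559 CPM in hippocampus, 76.5 to 110 CPM in WT neocortex and 89.8 to 216 CPM in miR-324-null neocortex, and neocortical principal neuron markers (6 genes, among them *Rorb*) to 152 to 254, 668 to 742 and 500 to 809 CPM. At an edgeR adjusted p of at most 0.05, 6 of the first 6 genes were higher in hippocampus in WT and 5 in miR-324-null mice. Of the second 6, 5 were lower in each genotype, and *Fezf2* overlapped between tissues in both. Of the 5 miR-324-null neocortex samples, 4 stood above all WT neocortex samples in the first sum and below them in the second. Striatal projection neuron markers (6 genes, among them *Drd1*) summed to 121 to 331 CPM in WT and 206 to 509 CPM in miR-324-null neocortex. Their medians were 132 and 283 CPM. Choroid plexus markers (5 genes, among them *Ttr*) summed to 4485 CPM in WT hippocampus replicate 3, 3854 CPM in miR-324-null hippocampus replicate 5 and 794 CPM in miR-324-null neocortex replicate 2, against 14.3 to 132 CPM elsewhere. *Mir324* itself was not analysed here. In bulk tissue, fewer cells of a type and less RNA per cell cannot be told apart.

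*Suox* (GRCm38 chromosome 10, 128669894 to 128674073) had 1 transcript, Suox-201. In the hippocampus its level in replicates 1 to 5 was 11.00, 10.59, 12.47, 10.15 and 9.85 CPM in WT and 15.76, 15.46, 15.02, 12.60 and 16.04 CPM in miR-324-null mice. In the neocortex it was 9.72, 9.62, 12.04, 8.61 and 10.29 CPM in WT and 12.89, 16.22, 14.62, 13.74 and 13.63 CPM in miR-324-null mice. The genotypes did not overlap in either tissue, although in the hippocampus the lowest null sample exceeded the highest WT sample by little.

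The means were 10.81 ± 1.03 and 14.97 ± 1.38 CPM in the hippocampus (SD, n = 5), a ratio of 1.39, and 10.1 ± 1.26 and 14.2 ± 1.27 CPM in the neocortex (SD, n = 5), a ratio of 1.41. The fitted log2 fold changes were 0.47 (SE 0.092) and 0.51 (SE 0.097). Groups that did not overlap, with the miR-324-null group higher, were seen for 1.37% of all genes tested in hippocampal and 1.01% in neocortical samples, and nothing is read from this for a gene picked by that contrast. These levels rested on 129 to 192 estimated counts per sample in WT hippocampus and 176 to 321 in miR-324-null neocortex.

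The difference between genotypes was close in size in the 2 tissues, with an interaction of -0.032 on the log2 scale (SE 0.13). Without the choroid-rich libraries the log2 fold changes were 0.50 and 0.45. The part of tissue makeup in the *Suox* difference was not tested. The tissue contrast, which played no part in choosing *Suox*, gave a log2 fold change of hippocampus over neocortex of 0.11 in WT (SE 0.10, edgeR adjusted p = 0.459) and 0.082 in miR-324-null mice (SE 0.088, edgeR adjusted p = 0.536).

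**Figure D1:**
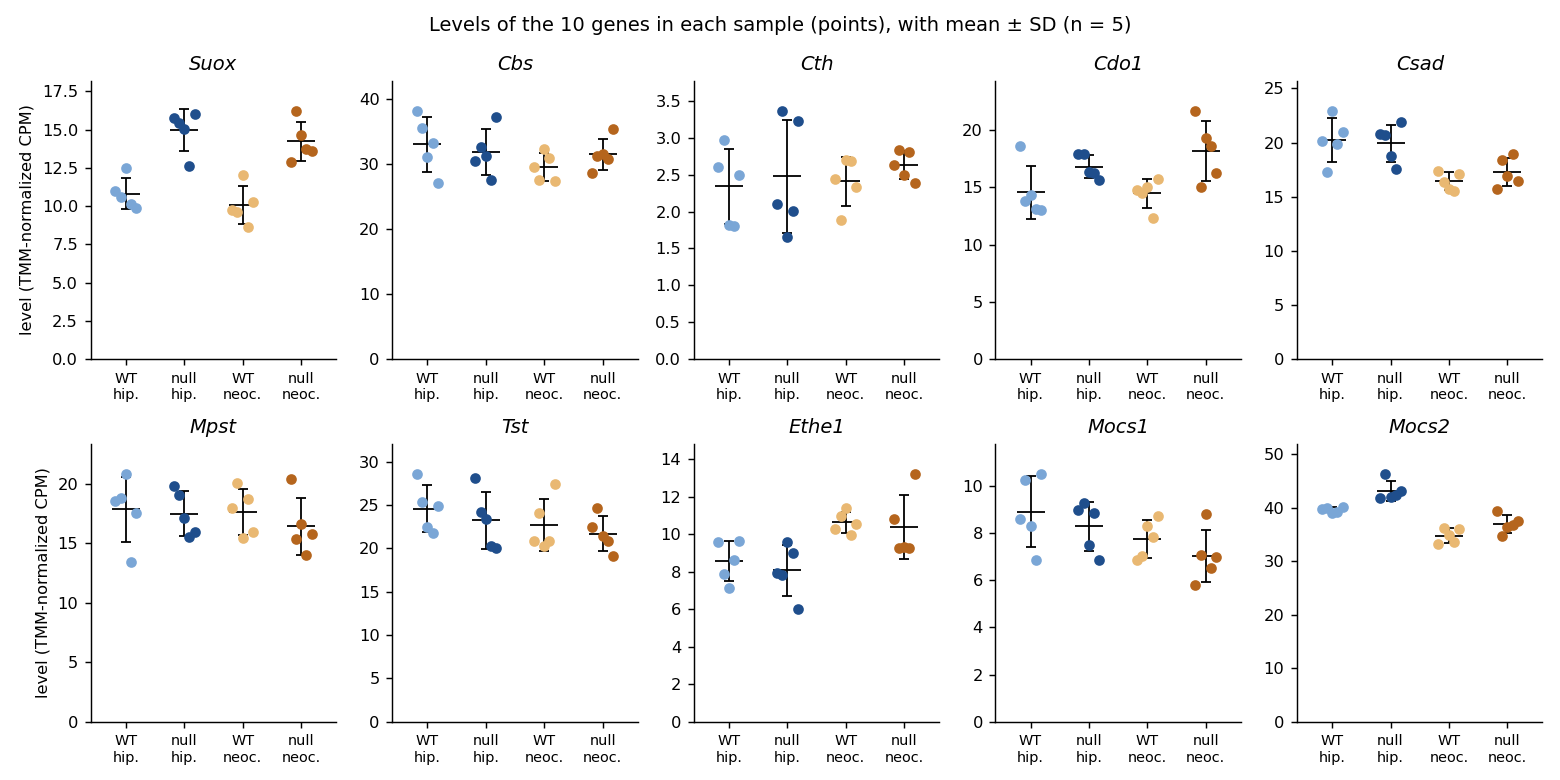
Level of each of the 10 genes in TMM-normalized CPM (vertical axis, from 0) in the 4 groups (horizontal axis; hip., hippocampus; neoc., neocortex; null, miR-324-null), with points for samples and bars for mean ± SD (n = 5). The miR-324-null samples of *Suox* lie above the WT samples in both tissues, from 12.6 CPM upwards against at most 12.5 CPM, while the other genes overlap between genotypes, apart from *Mocs2* in the hippocampus.

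By length-scaled level, *Suox* was among the scarcest of the 10 genes. In WT hippocampus it stood at 7.48 ± 0.73 TPM (SD, n = 5), ninth in order, with a range overlapping that of *Mocs1* (9.10 ± 2.82 TPM) and above that of *Cth* (3.22 ± 1.20 TPM). *Mocs2* was the most abundant at 65.1 ± 6.11 TPM and did not overlap with *Tst*, the next at 40.4 ± 2.96 TPM. From *Tst* down through *Cbs*, *Csad*, *Mpst* and *Cdo1*, neighbours in the order overlapped. *Cdo1* (17.4 ± 2.21 TPM) was separate from *Ethe1* (10.6 ± 1.20 TPM), which overlapped with *Mocs1*.

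In WT neocortex the order from *Cdo1* downwards was the same, with *Suox* at 7.08 ± 1.05 TPM. Its level in miR-324-null mice was 10.4 ± 0.80 TPM in hippocampus and 10.3 ± 1.13 TPM in neocortex. The level of *Cbs* depended on a short transcript, Cbs-206, of 230 bases. With it *Cbs* stood at 38.4 ± 11.2 TPM in WT hippocampus, and without it at 26.5 ± 2.28 TPM.

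**Figure D2:**
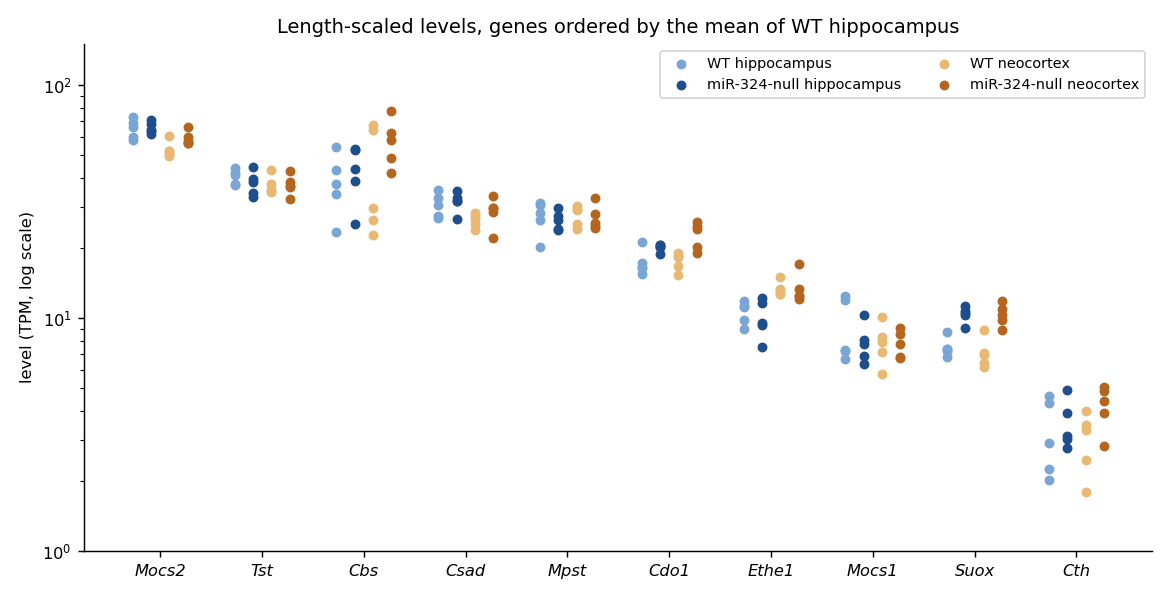
Level of each gene in TPM (vertical axis, log scale), with 5 points per group and genes ordered by their WT hippocampus mean (horizontal axis). *Mocs2* is highest and *Cth* lowest, *Suox* lies near *Mocs1* and *Ethe1*, and the spread of *Cbs* comes with its 230-base transcript.

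The genotype comparison asks which genes differ in mice that lack miR-324. Of the 9 genes other than *Suox*, 0 were called by edgeR's quasi-likelihood test in either tissue at an adjusted p of at most 0.05, against 0.115% of 14796 hippocampal and 0.315% of 14930 neocortical genes tested. With no adjustment, 1 of the 9 had a p of at most 0.05 in each tissue, against 11.1% and 12.2% of all genes. DESeq2 also called 0 of the 9 in each. Their median log2 fold change was -0.034 in hippocampus and 0.083 in neocortex, against 0.0012 and 0.0046 for all genes tested.

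Neither transsulfuration gene was called. *Cbs* (chromosome 17, 31608894 to 31637238) had log2 fold changes of -0.056 (SE 0.099) and 0.098 (SE 0.067) in hippocampus and neocortex, over samples of 27.1 to 38.2 CPM. *Cth* (chromosome 3, 157894248 to 157925077) was the scarcest, at 1.66 to 3.37 CPM or 23 to 56 counts per sample, and its log2 fold changes of 0.075 (SE 0.24) and 0.13 (SE 0.15) were the least precise of the set. *Cth* overlaps *Gm43314* on the same strand.

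*Cdo1* (chromosome 18, 46713193 to 46728395), which commits cysteine to oxidation, had the largest neocortical difference of the 9. In the neocortex its level was 14.75, 14.54, 15.00, 12.36 and 15.71 CPM in WT and 21.69, 15.06, 19.31, 18.63 and 16.23 CPM in miR-324-null mice. In 4 of 5 null samples the level was above all WT samples, and the exception was replicate 2. The log2 fold change was 0.33 (SE 0.10, unadjusted p = 0.00618, edgeR adjusted p = 0.220), so it was not called.

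In the hippocampus *Cdo1* stood at 18.62, 13.82, 14.29, 13.14 and 13.03 CPM in WT and 17.87, 17.91, 16.37, 16.25 and 15.63 CPM in miR-324-null samples. All null samples exceeded 4 of the WT samples and none exceeded WT replicate 1. The log2 fold change was 0.20 (SE 0.10, edgeR adjusted p = 0.483). It was 0.31 without WT replicate 1 (edgeR adjusted p = 0.315) and was still not called. In miR-324-null neocortex replicates 1 to 5 the hippocampal marker sums were 216, 152, 160, 179 and 89.8 CPM. The highest *Cdo1* level there was in replicate 1, with the highest sum, and the lowest in replicate 2. Replicate 5, with the lowest sum, stood at 16.23 CPM of *Cdo1*, above all WT neocortex samples. The log2 fold change of *Cdo1* in hippocampus over neocortex was 0.014 in WT (SE 0.10) and -0.10 in miR-324-null mice (SE 0.099). The part of tissue makeup in the *Cdo1* difference was not tested.

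*Csad*, which forms hypotaurine, stood at 15.5 to 22.9 CPM over the 20 samples, with log2 fold changes between genotypes of -0.023 (SE 0.085) and 0.083 (SE 0.068). *Mpst* (3-mercaptopyruvate sulfurtransferase), *Tst* (thiosulfate sulfurtransferase, or rhodanese) and *Ethe1* had negative values in both tissues, from -0.028 to -0.098 on the log2 scale, with SEs of 0.093 to 0.14 and edgeR adjusted p values of 0.758 or more. *Tst* and *Mpst* lie head to head on chromosome 15 with 508 bases between them.

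*Mocs1*, the other gene with the seed match, was not higher in miR-324-null samples. Its level was 8.91 ± 1.51 and 8.30 ± 1.04 CPM in WT and miR-324-null hippocampus and 7.75 ± 0.80 and 7.04 ± 1.11 CPM in the neocortex (SD, n = 5). The log2 fold changes were -0.11 (SE 0.13, edgeR adjusted p = 0.818) and -0.13 (SE 0.12, edgeR adjusted p = 0.723). The groups overlapped in both tissues. *Mocs1* overlaps *Gm20540* on the opposite strand.

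*Mocs2*, whose mRNA encodes both subunits of molybdopterin synthase, stood at 39.7, 40.0, 39.0, 39.3 and 40.1 CPM in WT and 41.7, 46.4, 41.9, 42.4 and 43.2 CPM in miR-324-null hippocampus. All null samples were above all WT samples, as for 1.37% of the genes tested. The log2 fold change was 0.12 (SE 0.049, unadjusted p = 0.0272, edgeR adjusted p = 0.381), and with an offset for average transcript length it was 0.0092 (edgeR adjusted p = 0.984). In the neocortex it was 0.091 (SE 0.049, edgeR adjusted p = 0.491), and the groups overlapped.

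**Figure D3:**
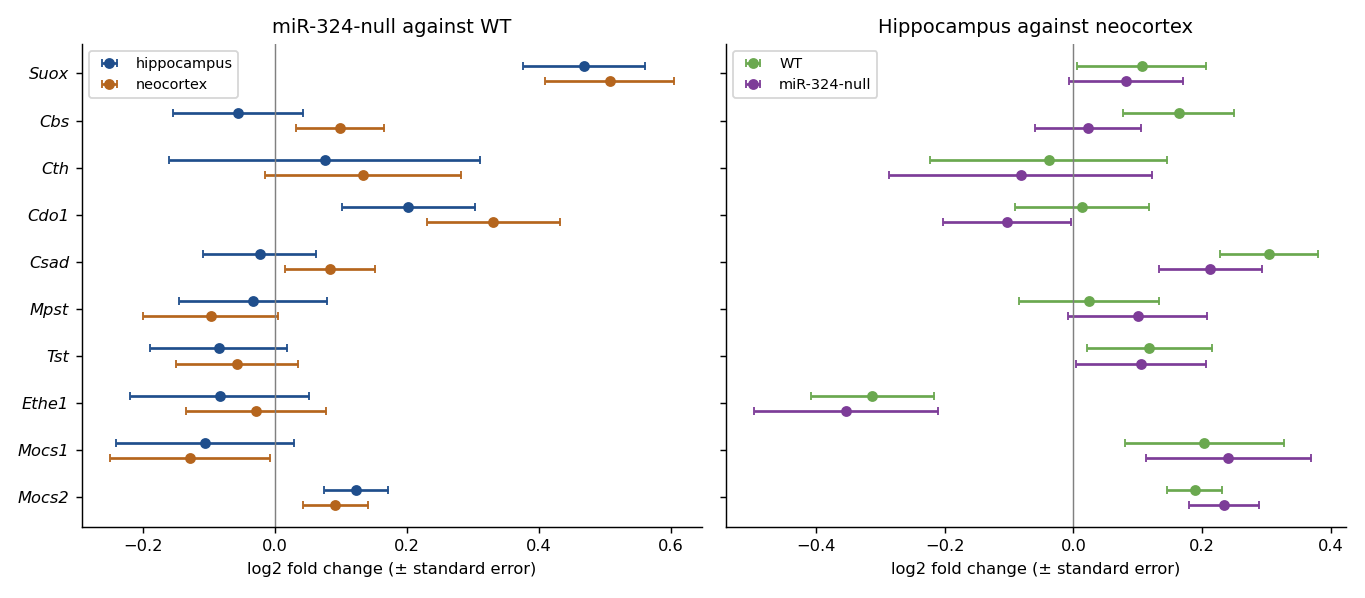
Log2 fold changes with standard errors (horizontal axes) of the 10 genes (vertical axis), for miR-324-null against WT in each tissue (left) and hippocampus against neocortex in each genotype (right). *Suox* stands at 0.47 and 0.51 on the left, while on the right *Csad* and *Mocs2* lie above 0 and *Ethe1* below it in both genotypes.

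The genotype difference itself was compared between tissues in a fit of all 20 samples. None of the 9 genes was called (0 by edgeR, 0 by DESeq2), against 0.0195% of 15391 genes, and 0 had an unadjusted p of at most 0.05, against 5.57%. The interactions lay between -0.15 for *Cbs* and 0.069 for *Mpst* on the log2 scale.

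Between tissues of WT mice, 3 of the 10 genes were called, against 36.1% of 14894 genes tested, so the share among the 10 was near the background. *Mocs2* and *Csad* were higher in the hippocampus (2 of 10, against 18.1% of all genes) and *Ethe1* was lower (1 of 10, against 18%). In miR-324-null mice 1 of the 10, *Mocs2*, was called, and higher, against 27.4% of 15033 genes called and 13.8% called higher. The median log2 fold changes of the 10 were 0.11 and 0.091, against -0.00077 and 0.0081 for all genes.

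*Mocs2* (chromosome 13, 114818236 to 114832275) stood at 33.2, 36.1, 34.9, 33.6 and 36.1 CPM in WT neocortex and 39.3, 34.6, 36.4, 36.7 and 37.5 CPM in miR-324-null neocortex. Both were below every hippocampal sample of the same genotype, as for 13.1% of all genes in WT and 10.1% in miR-324-null mice. The log2 fold change of hippocampus over neocortex was 0.19 in WT (SE 0.043, edgeR adjusted p = 0.00376) and 0.23 in miR-324-null mice (SE 0.054, edgeR adjusted p = 0.00652). With the length offset the second value was no longer called (edgeR adjusted p = 0.0653).

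*Csad* (chromosome 15, 102176999 to 102204724) stood at 20.18, 17.30, 22.93, 19.91 and 20.98 CPM in WT hippocampus and 17.41, 16.35, 15.73, 15.53 and 17.09 CPM in WT neocortex. Of the hippocampal samples, 4 were above all neocortical ones, and replicate 2 fell just below the highest of them. The log2 fold change was 0.30 (SE 0.075, edgeR adjusted p = 0.00641). In miR-324-null mice it was 0.21 (SE 0.080, edgeR adjusted p = 0.0681), which passed without hippocampus replicate 4 (edgeR adjusted p = 0.0403). It was also called there with all 20 samples in one fit. *Csad* overlaps *Zfp740* on the opposite strand, and whether the counting used strand is not given in the sources used here.

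*Ethe1* (chromosome 7, 24587543 to 24608925), the mitochondrial persulfide dioxygenase, ran the other way. It stood at 9.57, 7.88, 7.15, 8.66 and 9.62 CPM in WT hippocampus and 10.27, 11.00, 11.38, 9.96 and 10.57 CPM in WT neocortex, and the groups did not overlap, as for 26.5% of all genes in either direction. The log2 fold change was -0.31 (SE 0.095, edgeR adjusted p = 0.0209), and without the choroid-rich WT hippocampus replicate 3 it was -0.24 (edgeR adjusted p = 0.0613). It was also no longer called without WT hippocampus replicate 2 (edgeR adjusted p = 0.0525), without WT neocortex replicate 3 (edgeR adjusted p = 0.0609) or with all 20 samples in one fit (edgeR adjusted p = 0.0562). In miR-324-null mice it was -0.35 (SE 0.14, edgeR adjusted p = 0.0865), with overlapping groups, and it was called with all 20 samples in one fit (edgeR adjusted p = 0.0280). *Ethe1* overlaps *Zfp575* on the opposite strand.

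*Cbs* had a log2 fold change of 0.16 in WT (SE 0.086, edgeR adjusted p = 0.164), and without WT hippocampus replicate 5 it was 0.23 and was called (edgeR adjusted p = 0.0253). *Cbs* is known for its high level in astrocytes. Astrocyte markers (6 genes, among them *Aqp4*) summed to 2200 to 2589 CPM in WT hippocampus and 1802 to 2043 CPM in WT neocortex, with 4 of the 6 called higher and 1 lower in the hippocampus, and neuron markers (5 genes, among them *Snap25*) to 4225 to 4558 and 6012 to 6556 CPM, with 4 of the 5 called lower. In miR-324-null mice 1 of the 6 astrocyte markers was called higher in the hippocampus and 1 lower. The astrocyte marker sums of these mice were 2253 to 2417 CPM in hippocampus and 1694 to 2056 CPM in neocortex. The log2 fold change of *Cbs* there was 0.023 (SE 0.082, edgeR adjusted p = 0.865). The part of cell makeup in the tissue differences of *Cbs*, *Mocs2*, *Csad* and *Ethe1* was not tested.

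By transcript, estimated counts were divided unevenly. *Csad* had 23 annotated transcripts and *Mocs2* 17, while *Suox*, *Cdo1* and *Ethe1* had 1 each. In the genes with several transcripts above a mean share of 5%, 21 transcripts of 6 genes were compared by two-sided exact permutation tests. The smallest p that this test can give for 5 samples against 5 is 0.0079, so after adjustment over the 21 transcripts a share could pass only if several stood at that minimum together. After adjustment 0 shares passed in any comparison, and the lowest adjusted p values were 0.697 and 0.667 for genotype in hippocampus and neocortex and 0.333 for tissue in each genotype. With no adjustment 0, 1, 2 and 1 shares passed.

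The spread within groups was wide. Mpst-202 held between 0.0091% and 63.6% of *Mpst* counts in WT hippocampus, and Mpst-204 between almost none and 86.7%. Mocs1-201 and Mocs1-203, which both carry the seed match, held 57.8 ± 27.4% and 27.3 ± 24.2% of *Mocs1* counts there (SD, n = 5). *Mocs2* was steadier, with Mocs2-207 at 50.1 ± 5.77% in WT hippocampus, 47.2 ± 4.79% in miR-324-null hippocampus and 47.4 ± 5.98% in WT neocortex, though it was 38.6 ± 16.9% in miR-324-null neocortex. Sums per gene do not depend on this division, and TPM and the length offset do.

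**Figure D4:**
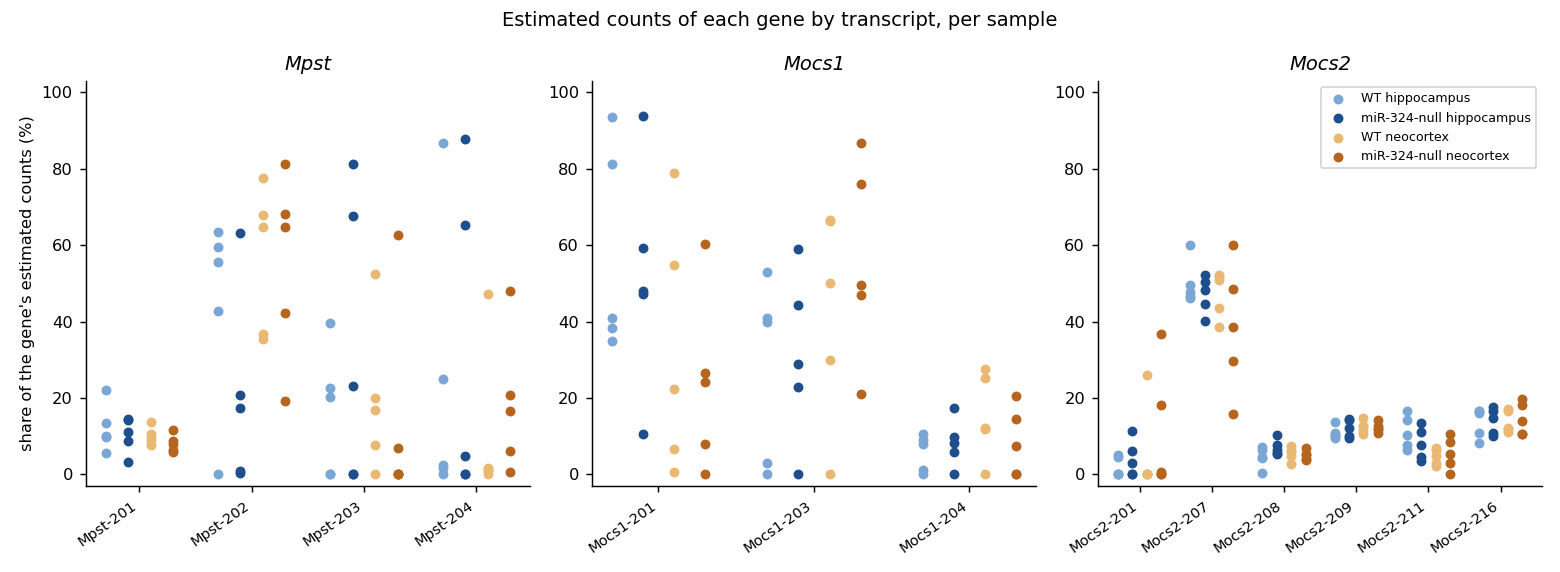
Share of the estimated counts of *Mpst*, *Mocs1* and *Mocs2* held by each transcript (vertical axis, percent), for transcripts above a mean share of 5% (horizontal axis), with 5 points per group. Points of Mpst-202, Mpst-203, Mpst-204, Mocs1-201 and Mocs1-203 spread widely within every group, while most *Mocs2* transcripts stay in narrow bands.

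The wider pathway was read from 52 other genes in 6 lists. Between genotypes 0 were called, of 44 tested in hippocampus and 46 in neocortex, against 0.115% and 0.315% of all genes. With no adjustment 7 and 5 had a p of at most 0.05, against 11.1% and 12.2% of all genes, and nothing particular to these genes is read from the counts. Between tissues of WT mice 7 were higher and 9 lower in the hippocampus of 45 tested (35.6%, against 36.1% of all genes), and in miR-324-null mice 6 were higher and 2 lower of 45 (17.8%, against 27.4%). For the counts by list that follow, the shares of all genes called higher and lower were 18.1% and 18% in WT and 13.8% and 13.6% in miR-324-null mice, and with 4 to 10 genes a list the counts are given as a description.

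In glutathione synthesis and cysteine supply, 3 of 10 genes were higher and 2 lower in WT hippocampus. *Slc1a1*, the neuronal transporter that carries cysteine as well as glutamate, had a log2 fold change of 0.62 (SE 0.061, edgeR adjusted p = 3.55e-06) in WT and 0.65 (SE 0.053, edgeR adjusted p = 4.19e-06) in miR-324-null mice. *Ggct*, an enzyme of glutathione breakdown, was higher by 0.41 in miR-324-null mice (edgeR adjusted p = 0.0166). In WT it was among the 3 genes called higher, at 30.6 ± 4.03 TPM in hippocampus against 26.7 ± 3.85 TPM in neocortex (SD, n = 5).

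In sulfate activation and transport, 2 of 7 genes were higher in WT hippocampus and 1 in miR-324-null hippocampus. *Papss2*, which makes the activated sulfate used by sulfotransferases, had log2 fold changes of 0.82 (SE 0.096, edgeR adjusted p = 1.88e-05) and 0.60 (SE 0.087, edgeR adjusted p = 0.000249). In the methionine cycle 2 of 9 tested genes were higher and 3 lower in WT. *Ahcyl2* had values of 0.45 in WT and 0.44 in miR-324-null mice, *Mtrr*, which reactivates methionine synthase, 0.63 in WT, and *Bhmt2*, a homocysteine methyltransferase at 0.45 to 1.77 CPM in WT samples, -0.95 in WT, each called. In miR-324-null mice neither *Mtrr* nor *Bhmt2* was called. *Bhmt2* stood there at 0.49 ± 0.12 TPM in hippocampus and 0.56 ± 0.11 TPM in neocortex (SD, n = 5).

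In hydrogen sulfide formation and oxidation 1 of 8 genes was lower in WT and 1 higher in miR-324-null hippocampus, the second being *Selenbp1*, a methanethiol oxidase, at 0.35 (edgeR adjusted p = 0.00542). In the molybdenum list 2 of 7 were lower in WT and 0 were called in miR-324-null mice. In taurine synthesis and uptake 1 of 4 genes was lower in each genotype, and it was not the same gene. Lower in the hippocampus of miR-324-null mice than in their neocortex were 2 genes, named after their values were seen. They were *Mat2b*, a subunit of methionine adenosyltransferase, at -0.28, and *Slc6a6*, the taurine transporter, at -0.24. In WT *Mat2b* was also called lower in the hippocampus, and *Slc6a6* was not called.

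**Figure D5:**
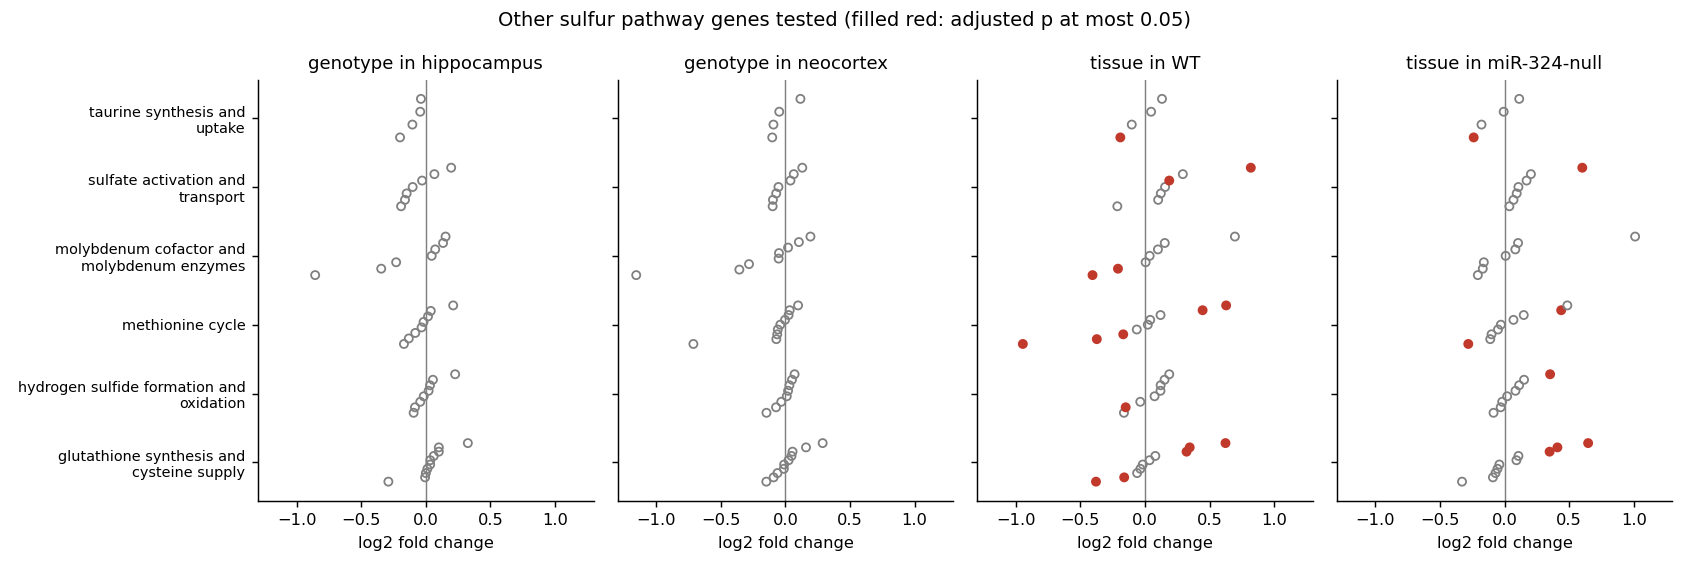
Log2 fold changes (horizontal axes) of the other sulfur pathway genes tested, by list (vertical axis), in the genotype and tissue comparisons, with called genes filled in red. No gene is called between genotypes, and between tissues *Papss2* stands furthest right among the called genes in WT and *Slc1a1* in miR-324-null mice.

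The genes most like *Suox* over the 4 group means, among 14587 genes tested in both tissues, were *Dnah7a*, *Slc38a4*, *Gapdh*, *Acp7* and *Gm48216*. Their root-mean-square differences from *Suox* were 0.023 to 0.044 on the log2 scale, against a median of 0.27 for all genes. The means of *Dnah7a*, *Slc38a4*, *Acp7* and *Gm48216* lay below 5 CPM. *Gapdh* was abundant, at 1548 ± 302 and 2192 ± 224 CPM in WT and miR-324-null hippocampus and 1524 ± 274 and 2097 ± 357 CPM in the neocortex (SD, n = 5), and its groups overlapped in both tissues.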

How the data were processed

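Poly(A) RNA was sequenced with a stranded kit, and the authors pseudo-aligned reads with kallisto to an Ensembl transcriptome of GRCm38. The authors deposited estimated counts and TPM per transcript and sample. Whether strand was used is not given in the sources used here. Of 115270 transcripts, 113580 were matched to GENCODE annotation, and the 1690 others (at most 0.556% of counts) were left out. Estimated counts were summed per gene, rounded, and tested with edgeR 4.0.16 in R 4.3.3 (limma 3.58.1), with TMM, the default filter, the quasi-likelihood test and Benjamini-Hochberg adjustment at 0.05 over all genes tested, fitting the groups compared or, for the interaction, all 20 samples. DESeq2 1.42.0 was an alternative, and the authors used Tximport and DESeq2. On simulated counts with 200 changed genes, edgeR recovered 92% for genotype in hippocampus and 88% in neocortex. For tissue it recovered 90.5% in WT and 89.5% in miR-324-null mice. The false share among its calls was 3.16%, 7.37%, 5.73% and 4.79% in the same order. The recovered shares hold for the size of change simulated. They are not read as the power to call smaller differences between genotypes.

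The genes and lists were chosen with earlier results of these data known. Named were the 10 genes, up to 5 called pathway genes of largest change per comparison, and the 5 genes most like *Suox*. *Suox* had 1 transcript, so its planned share test was void, and shares of other transcripts were tested instead. Leaving out choroid-rich libraries was also added after the data were seen. Same-numbered samples were not treated as pairs.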

Additional observations from a re-analysis of the deposited data

Results flagged for a closer look

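*Cdo1* in WT hippocampus replicate 1 stood at 18.6 CPM, far above the other 4 samples of its group, which lay between 13.03 and 14.29 CPM. Of 40 groups of 5 samples checked (10 genes in 4 groups), this was the 1 with a sample so far apart, and chance alone flags about 1 group in 20.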

How the results depend on the processing

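Between genotypes and for the interaction, 0 of the 9 genes were called under every alternative run, while the calls over all genes ranged from 4 (replicate block) to 141 (DESeq2) in the hippocampus, where the main count was 17, and from 26 (at least 10 counts in every sample) to 566 (without miR-324-null neocortex replicate 5) in the neocortex, where it was 47 and DESeq2 gave 241. Between tissues of miR-324-null mice the count of 1 went to 0 with the length offset and 3 with all 20 samples in one fit, and to between 1 and 2 with a replicate left out. The replicate block left that count at 1 and took the WT count from 3 to 2, since *Ethe1* had an edgeR adjusted p of 0.0526. The labels do not say what a replicate number marks, and whether same-numbered samples of the 2 tissues share a mouse is not known. Between tissues the deviations of same-numbered samples correlated at -0.10 to 0.10 in WT and 0.017 to 0.18 in miR-324-null mice, where 3 and 4 of 5 samples matched their own number best, a hint from the data only. As not every pair was above 0.1, no pairing was assumed. The *Suox* share test and its alternatives had no value, because *Suox* has 1 transcript.

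No called value changed sign. Uncalled log2 fold changes that did were, with the length offset, *Cbs* (0.13 for genotype in hippocampus, -0.050 for tissue in WT, -0.36 in null mice), *Csad* (0.037 for genotype in hippocampus), *Cth* (0.13 for tissue in WT), and the interactions of *Mocs1* (-0.17) and *Mocs2* (-0.097). Without the choroid-rich libraries they were *Cth* (-0.13 for genotype in hippocampus, 0.052 for tissue in WT), *Mpst* (0.058 and -0.029 for the same), *Ethe1* (0.012 for genotype in neocortex), *Cbs* (-0.044 for tissue in null mice) and the interaction of *Tst* (0.044). With a replicate left out, genotype values in the hippocampus ran from -0.12 to 0.0013 for *Cbs*, -0.058 to 0.19 for *Cth*, -0.076 to 0.026 for *Csad*, -0.12 to 0.028 for *Mpst* and -0.16 to 0.0073 for *Ethe1*, and in the neocortex from -0.11 to 0.013 for *Tst* and -0.13 to 0.012 for *Ethe1*. Tissue values in WT ran from -0.14 to 0.052 for *Cth*, -0.091 to 0.060 for *Cdo1* and -0.029 to 0.11 for *Mpst*, and in null mice from -0.039 to 0.067 for *Cbs* and -0.21 to 0.038 for *Cth*. Interactions ran from -0.18 to 0.066 for *Cth*, -0.014 to 0.15 for *Mpst*, -0.10 to 0.036 for *Tst*, -0.12 to 0.053 for *Ethe1* and -0.049 to 0.12 for *Mocs1*. The cause was not tested. The *Suox* genotype value stayed between 0.44 and 0.52 in the hippocampus and between 0.45 and 0.58 in the neocortex under every alternative run. Its interaction, described with no test, was -0.032 and ran from -0.11 (without WT neocortex replicate 3) to 0.050 (without the choroid-rich libraries), and it was also above 0 without WT hippocampus replicate 3, miR-324-null hippocampus replicate 4, WT neocortex replicate 4 or miR-324-null neocortex replicate 2. Counting precision limits *Cth* most.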
